A study of Mus musculus with 2 samples.

Results

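The genes described here are 46 signal transduction genes of CD8 single-positive thymocytes, the killer-lineage T cells in the last stage of their development in the thymus. They were taken from the 789 genes with a symbol in the authors' deposited table of transcripts that differed by at least 2-fold between CIITAtgpIV-/- and B6 wild-type mice. A gene was included when its gene ontology process term named signal transduction or a signaling pathway. The term also had to hold none of the words transcription, cell cycle, cell division and mitosis, nor the letters DNA rep. Chemokine and cytokine receptors, integrins, Ly49 receptors, MHC genes and some other named receptors were left out by symbol. Of 84 listed probe sets with a signalling term, 16 also carried a term of transcription or division and 21 were left out by symbol, which left 47 probe sets for the 46 genes. The 2-fold difference chose these genes, so their differences and their directions are a description and carry no test.

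CIITAtgpIV-/- mice carry a transgene of CIITA, the master switch of MHC class II genes, and lack promoter IV of the endogenous gene, as read from their name. The labels do not name the promoter that drives the transgene. The control mice were wild type, and both groups were on the B6 background and 8 weeks old. Each group is 1 Affymetrix array of CD8 single-positive thymocytes enriched with magnetic beads, and its RNA came from 2 to 4 pooled thymuses. With 1 array a group there is no replicate, no SD and no p-value for any value below, and precision is limited by the number of arrays. A lower signal from a bulk sample can come from fewer cells of a type or from less RNA per cell, which cannot be told apart here.

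Signal transduction carries a message from a receptor at the cell surface to the machinery inside the cell. Receptors coupled to G proteins, receptor kinases and innate receptors start the relay, and small GTPases pass it on, switched on by exchange factors (GEFs) and off by GTPase-activating proteins (GAPs). Kinases, lipid messengers and cyclic nucleotides spread the signal, and feedback proteins such as the RGS family damp it. In thymocytes such pathways govern selection, migration between thymic zones and exit from the thymus.

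All values are log2 signals of robust multi-array averages (RMA), and every difference is CIITAtgpIV-/- minus B6 wild-type on that log2 scale. The arrays had median signals of 5.30 in CIITAtgpIV-/- and 5.20 in B6 wild-type. A gene was taken as past the expression floor when the higher of its signals was at least 5.42, which is the median of that higher signal over all 35556 probe sets. Over the 28560 probe sets in the identifier range of the authors' table, the robust SD of the difference was 0.25, and it was 0.20 for probe sets below the floor and 0.36 for those above the 75th percentile of signal. This spread mixes array error, mouse and genotype differences. Of 7 markers of CD8 T cells, Cd8a and Cd3e among them, none is named in the authors' table, so the labelled cell type could not be checked from names. All 6 listed markers of immature double-positive thymocytes (of 7) were lower in CIITAtgpIV-/-, by -1.19 to -5.05, and so were all 6 markers of cycling cells, by -3.55 to -4.52. The listed markers of red cells (2 of 4), myeloid cells (2 of 5), dendritic cells (1 of 3) and B cells (1 of 6) were lower too, and none of 5 NK cell and 5 thymic epithelial markers was listed.

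Of the 46 signalling genes, 13 were higher and 33 lower in CIITAtgpIV-/-. Since all members were drawn from the transcripts past 2-fold, nothing is read from these counts against the background, where 0.977% of the probe sets in the range were at least 2-fold higher and 2.54% at least 2-fold lower. Past the floor, 36 genes were left, 10 higher and 26 lower, beside 1.78% and 4.78% of the probe sets past the floor. The lower share was 71.7% of the signalling genes and 72.5% of all listed genes. The median difference past the floor was -1.23 for the signalling genes and -1.32 for all listed genes, and the differences ran from -3.29 (Depdc1a) to 2.71 (Plek). At 4-fold or more, 2 signalling genes were higher (Plek and Chst11) and 8 were lower, among them Depdc1a, Stil, Ect2, Gfra1, Arhgap19, Depdc1b and Arhgap11a.

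**Figure D1:**
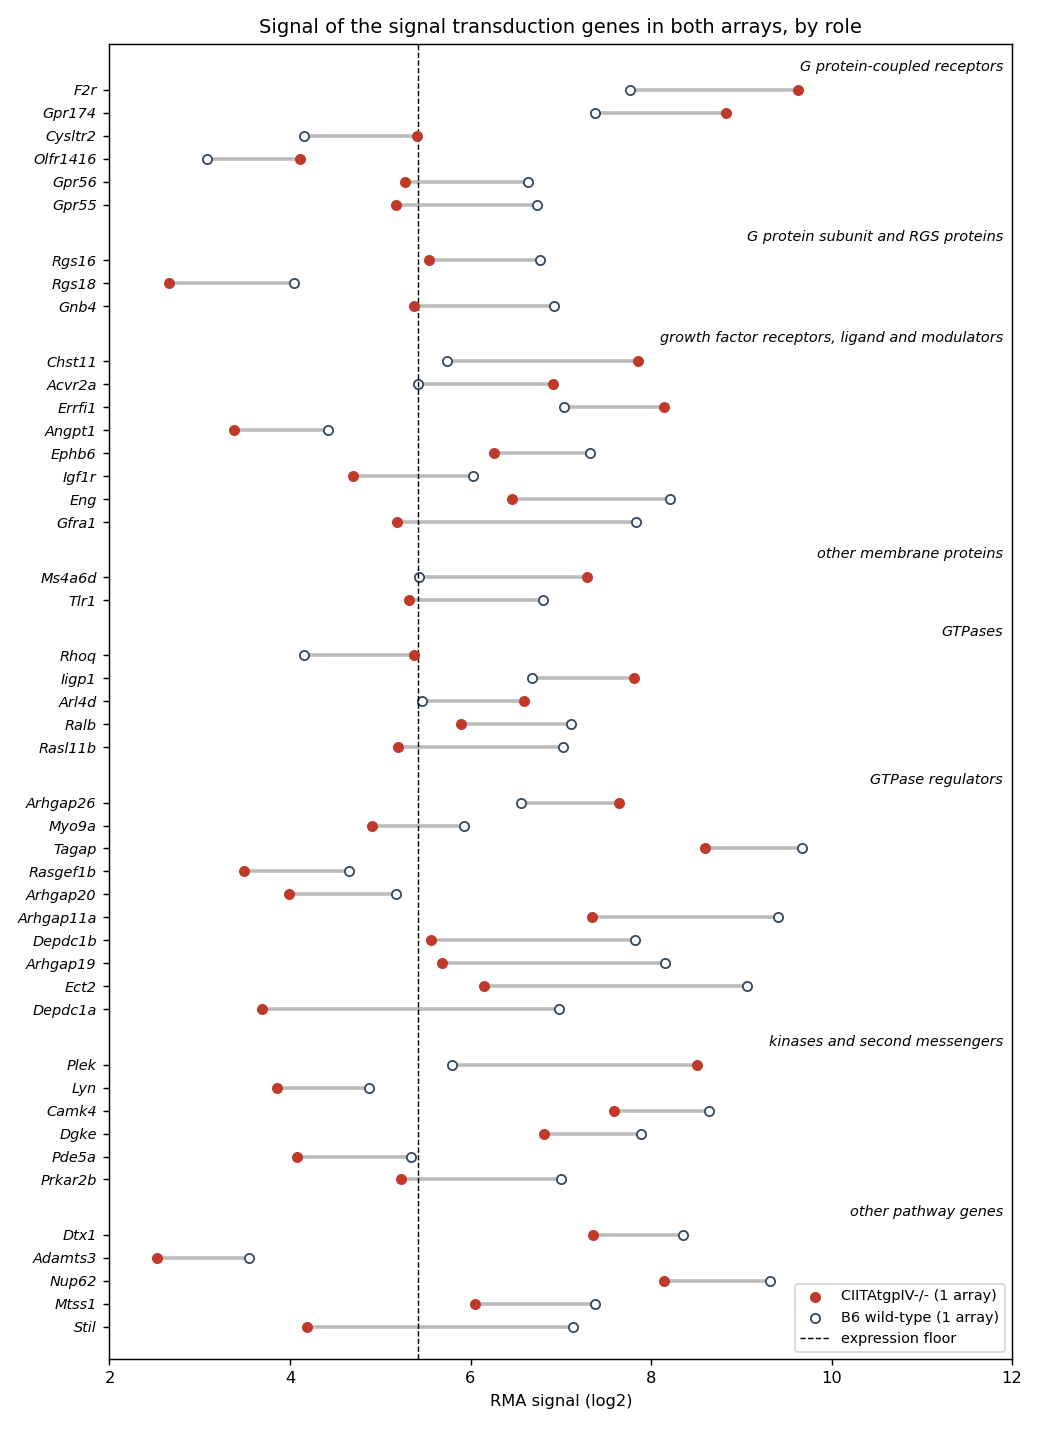
RMA signal (log2, horizontal axis) of 45 of the 46 genes in the CIITAtgpIV-/- array (filled red) and the B6 wild-type array (open), grouped by role, with the expression floor of 5.42 dashed. The members of the G protein subunit and RGS group and of the last group all have the red point on the left, while the receptor groups hold both directions.

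GTPase regulators, the largest role with 10 of the 46 genes, held 9 of the 33 lower genes, and 5 of the 9 were over 4-fold lower. Over all 789 listed genes, 572 were lower, 196 of them at least 4-fold. The 5 are Ect2, Arhgap11a, Arhgap19, Depdc1a and Depdc1b, which have known roles in division, so the count is not read as a trait of GTPase regulators. The following 4 promoter windows are shown because these genes were all over 4-fold lower and because each window carries the same pair of motifs. Capitals mark TTTGAA, the cell cycle genes homology region that many promoters of late cell cycle genes share, and CCAAT, the box bound by the factor NF-Y, on either strand, so that a match on the opposite strand appears as TTCAAA or ATTGG. Each window runs 5′ to 3′ on the gene's strand from 250 bases before to 50 bases after a start site of RefSeq on mouse build GRCm38.p6. The windows lie at chr3:27153829-27154128 (minus strand, Ect2), chr2:113848612-113848911 (minus strand, Arhgap11a), chr19:41802035-41802334 (minus strand, Arhgap19) and chr3:159495183-159495482 (plus strand, Depdc1a).
Ect2: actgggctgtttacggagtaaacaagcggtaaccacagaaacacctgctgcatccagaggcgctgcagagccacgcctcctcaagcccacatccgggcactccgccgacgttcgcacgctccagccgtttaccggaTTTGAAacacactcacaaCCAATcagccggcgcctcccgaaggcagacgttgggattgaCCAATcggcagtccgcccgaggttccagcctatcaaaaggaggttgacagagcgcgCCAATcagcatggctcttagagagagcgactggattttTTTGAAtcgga
Arhgap11a: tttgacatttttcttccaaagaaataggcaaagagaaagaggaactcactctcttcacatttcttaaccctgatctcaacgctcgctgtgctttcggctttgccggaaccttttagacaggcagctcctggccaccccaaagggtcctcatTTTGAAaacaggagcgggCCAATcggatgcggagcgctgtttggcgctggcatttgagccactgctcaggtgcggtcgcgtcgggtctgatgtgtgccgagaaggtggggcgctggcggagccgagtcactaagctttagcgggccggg
Arhgap19: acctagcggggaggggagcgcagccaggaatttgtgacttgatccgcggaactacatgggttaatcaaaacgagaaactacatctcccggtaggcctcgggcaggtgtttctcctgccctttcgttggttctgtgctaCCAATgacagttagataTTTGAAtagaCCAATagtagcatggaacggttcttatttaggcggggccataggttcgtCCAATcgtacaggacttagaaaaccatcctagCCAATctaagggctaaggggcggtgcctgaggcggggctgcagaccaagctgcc
Depdc1a: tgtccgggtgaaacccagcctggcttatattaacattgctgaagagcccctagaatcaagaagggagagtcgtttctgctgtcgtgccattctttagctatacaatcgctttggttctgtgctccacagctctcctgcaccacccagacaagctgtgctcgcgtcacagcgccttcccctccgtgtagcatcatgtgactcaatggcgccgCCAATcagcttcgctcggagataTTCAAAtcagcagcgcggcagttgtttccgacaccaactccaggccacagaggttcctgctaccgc

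In all 4 windows a TTTGAA lay close to a CCAAT, with 18 bases from start to start in both Ect2 and Arhgap11a, 10 in Arhgap19 and 23 in Depdc1a, where the TTTGAA is on the opposite strand. The motifs do not overlap each other. Promoter windows were matched for 35 of the 46 genes. Both motifs stood together in the windows of 4 of these genes, which are the 4 shown. They did so in none of the other 20 lower genes outside the cell division group or of the 10 higher genes with a window. That group holds the 4 shown, Stil and Depdc1b, of which Depdc1b had no matched window. It was put together after the values were seen, so the contrast between these groups is only a description. By gene, TTTGAA was present for 17.1% of these 35 and 20.2% of the 27025 genes of the RefSeq table, CCAAT for 48.6% and 41.1%, and both for 11.4% and 7.97%. By window, the shares of all 32851 windows were 17.9%, 37.4% and 6.95%. Stil, the centriole gene described below, had CCAAT and no TTTGAA. The motifs were chosen after the values were known, and a match describes the letters in the window and not a binding site.

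Ect2, the exchange factor of cytokinesis, had a signal of 6.14 in CIITAtgpIV-/- against 9.06 in B6 wild-type, a difference of -2.92 or 7.55-fold lower. Arhgap11a, a GAP, had 7.35 against 9.40 in B6 wild-type, a difference of -2.05. Arhgap19, a GAP of dividing lymphocytes, had 5.69 against 8.16 in B6 wild-type, 5.53-fold lower. These 3 genes were well past the floor in B6 wild-type, and each stayed past it in the CIITAtgpIV-/- array.

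Depdc1a and Depdc1b, paralogs with a DEP domain and a GAP-like domain, were both lower. Depdc1a had 3.69 in CIITAtgpIV-/- and 6.98 in B6 wild-type by the probe set on chromosome 3, where the gene lies, and 3.64 and 6.80 by a second probe set on chromosome 7. The differences of -3.29 and -3.16 were thus 0.14 apart, and how much of the signal comes from each place is uncertain. Depdc1b had 5.56 in CIITAtgpIV-/- and 7.83 in B6 wild-type, 4.80-fold lower. Stil, a centriole duplication protein that enters the signalling list through its role in the Hedgehog pathway, had 4.19 in CIITAtgpIV-/- and 7.14 in B6 wild-type, a difference of -2.95.

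These 6 genes have known roles in division, yet their process terms held none of the words that the selection screened for. A division term in other words would not have been caught. This is how the 6 genes remain among the signalling genes. They were put together after their values were seen. The 6 cycling markers were lower in the same library, from Top2a (7.02 in CIITAtgpIV-/- and 10.57 in B6 wild-type) to Bub1 (4.41 and 8.93), with a summed linear signal of 422 in CIITAtgpIV-/- and 6199 in B6 wild-type over the 6, and their part in the differences of these regulators was not tested. Without the 6 genes, 40 signalling genes remained, of which 13 were higher and 27 lower, and the median difference past the floor was -1.08 in place of -1.23.

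The other GTPase regulators differed less, and all but Arhgap26 were lower, beside 72.5% of all listed genes. Tagap, a GAP induced on T cell activation, had 8.60 in CIITAtgpIV-/- and 9.67 in B6 wild-type, and its difference of -1.08 was among the smaller ones. Arhgap26, a GAP of the GRAF family that acts at focal adhesions and in membrane traffic, had 7.64 in CIITAtgpIV-/- against 6.55 in B6 wild-type, 2.13-fold higher. Myo9a, a myosin that carries a GAP domain, had 4.91 against 5.93 in B6 wild-type. Its probe set covers a stretch of only 111 bases of a gene that spans 178019 bases in RefSeq, so the value speaks for that stretch. Arhgap20 and Rasgef1b, an exchange factor of the Ras family, were below the floor in both arrays with differences of -1.19 and -1.17. By the authors' annotation, GTPase activator activity was held by 9 signalling genes, of which 8 were lower. These 8 include Rgs16 and Rgs18, which are placed in another role, and the division-linked Arhgap11a, Arhgap19, Depdc1a and Depdc1b. It was also held by 4 listed genes that are not members, of which 2 were lower. Rgs1, higher and left out of the members by symbol, is among these 4.

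Among the GTPases themselves 3 were higher and 2 lower. Iigp1, an interferon-inducible GTPase of the defence against intracellular parasites, had 7.81 in CIITAtgpIV-/- and 6.68 in B6 wild-type, 2.19-fold higher. Arl4d, an Arf-like GTPase at the plasma membrane, had 6.59 in CIITAtgpIV-/- and 5.47 in B6 wild-type. Rhoq, a Cdc42-related GTPase of insulin-driven membrane traffic, was higher by 1.22 but below the floor in both arrays. Rasl11b, a small Ras-like protein, had 5.20 in CIITAtgpIV-/- and 7.02 in B6 wild-type, 3.53-fold lower. Ralb, which couples Ras to exocytosis and survival, had 5.90 in CIITAtgpIV-/- and 7.12 in B6 wild-type, a difference of -1.22.

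G protein-coupled receptors divided into 4 higher and 3 lower genes, 2 and 3 past the floor. F2r, the thrombin receptor PAR1 (chromosome 13, 96371744 to 96388429 in the file's coordinates, build not given), had 9.63 in CIITAtgpIV-/- against 7.76 in B6 wild-type, 3.64-fold higher. Gpr174, a lysophosphatidylserine receptor of lymphocytes, had 8.83 in CIITAtgpIV-/- against 7.38 in B6 wild-type, 2.73-fold higher. Both were past the floor in each array. Gpr55, a receptor for lysophosphatidylinositol, had 5.17 in CIITAtgpIV-/- and 6.74 in B6 wild-type, 2.96-fold lower. Gpr56, now named Adgrg1, an adhesion receptor known from human cytotoxic lymphocytes and from neural progenitors, had 5.28 in CIITAtgpIV-/- and 6.63 in B6 wild-type. Both of these lower receptors thus lay above the floor in B6 wild-type and below it in CIITAtgpIV-/-. The leukotriene receptor gene Cysltr2 was higher by 1.25 and the olfactory receptor gene Olfr1416 by 1.03, both below the floor throughout, and the Olfr1416 value rests on 11 probes.

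The G protein subunit and both RGS genes among the members were lower, as were 72.5% of all listed genes. The RGS gene Rgs1, also in the authors' table, was left out of the members by symbol, and it was higher, with 9.17 in CIITAtgpIV-/- and 6.61 in B6 wild-type. Gnb4, a beta subunit of heterotrimeric G proteins, had 5.37 in CIITAtgpIV-/- and 6.93 in B6 wild-type, 2.95-fold lower. Rgs16, which speeds the shut-off of Gi and Gq signals downstream of chemokine receptors, had 5.54 in CIITAtgpIV-/- and 6.77 in B6 wild-type, a difference of -1.23. Rgs18, an RGS protein of platelets and myeloid cells, differed by -1.39 with both signals under the floor, at 2.65 in CIITAtgpIV-/- and 4.04 in B6 wild-type. The myeloid markers Lyz2 and Mpeg1 were lower in the same library, by -2.94 and -2.42, with a summed linear signal of 26.1 in CIITAtgpIV-/- and 165 in B6 wild-type, and their part in this value was not tested. The other 3 myeloid markers were not listed.

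**Figure D2:**
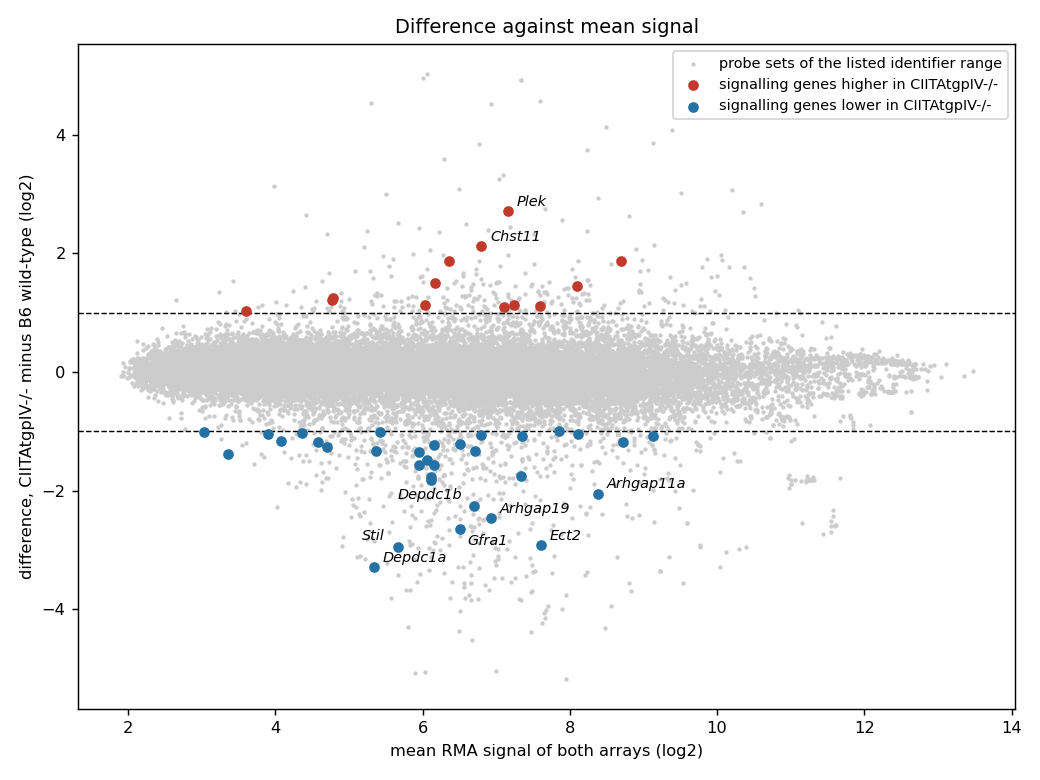
Difference (CIITAtgpIV-/- minus B6 wild-type, log2) against the mean signal of both arrays (log2) for the 28560 probe sets in the listed range (grey) and 45 of the 46 genes (red higher, blue lower), with dashed lines at 2-fold and names at 4-fold. Plek and Chst11 stand above and 7 named genes stand below, down to -3.29 for Depdc1a.

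Genes of growth factor signalling comprised 3 higher and 5 lower members. Chst11, a sulfotransferase that builds chondroitin sulfate and is annotated to restrain TGF-beta signalling, had 7.86 in CIITAtgpIV-/- against 5.74 in B6 wild-type, 4.36-fold higher. Acvr2a, a type II receptor for activins, had 6.92 in CIITAtgpIV-/- against 5.42 in B6 wild-type, 2.82-fold higher. Errfi1, a feedback inhibitor of EGF receptors, had 8.14 in CIITAtgpIV-/- and 7.04 in B6 wild-type, a difference of 1.10. Gfra1, the co-receptor through which GDNF reaches the kinase Ret (chromosome 19, 58310102 to 58529849 in the file's coordinates), had 5.18 in CIITAtgpIV-/- against 7.83 in B6 wild-type, 6.25-fold lower. Eng, endoglin, a TGF-beta co-receptor best known from endothelium, had 6.46 in CIITAtgpIV-/- and 8.21 in B6 wild-type, 3.35-fold lower. Thus in TGF-beta and activin signalling Acvr2a and Chst11 were higher while Eng was lower.

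Igf1r, the receptor for IGF-1, had 4.70 in CIITAtgpIV-/- and 6.03 in B6 wild-type, a difference of -1.33. Ephb6, an Eph receptor of T cells whose kinase domain is inactive, had 6.26 in CIITAtgpIV-/- and 7.32 in B6 wild-type. The ligand gene Angpt1, angiopoietin 1, was below the floor in both arrays with a difference of -1.04. Among other membrane proteins, Ms4a6d, a tetraspan protein of the MS4A family, had 7.30 in CIITAtgpIV-/- against 5.43 in B6 wild-type, 3.64-fold higher. Tlr1, which pairs with Tlr2 to sense bacterial lipopeptides, had 5.31 in CIITAtgpIV-/- and 6.80 in B6 wild-type, 2.81-fold lower, and was again accompanied by the lower myeloid markers, whose part was not tested.

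Of the 6 kinases and second messenger genes, Plek alone was higher, where 72.5% of all listed genes were lower. Plek encodes pleckstrin, a main substrate of protein kinase C in platelets and leukocytes (chromosome 11, 16871451 to 16952384 in the file's coordinates, an interval longer than the RefSeq gene). It had 8.51 in CIITAtgpIV-/- against 5.80 in B6 wild-type, a difference of 2.71 or 6.55-fold, the largest increase among the 46 genes. Prkar2b, a regulatory subunit of the cAMP-dependent protein kinase, had 5.23 in CIITAtgpIV-/- and 7.00 in B6 wild-type, 3.41-fold lower. Camk4, a calcium-dependent kinase with a role in thymocyte selection, had 7.59 in CIITAtgpIV-/- and 8.64 in B6 wild-type, a difference of -1.05. Dgke, which removes the messenger diacylglycerol, had 6.82 in CIITAtgpIV-/- and 7.89 in B6 wild-type. Pde5a, which degrades cyclic GMP, and Lyn, a Src-family kinase of B and myeloid cells, were below the floor with differences of -1.27 and -1.02. The B cell marker gene Igj, now Jchain, was lower as well, by -1.86, and its part was not tested.

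The remaining 5 pathway genes were all lower. As 72.5% of all listed genes were lower, nothing is read from this count. Mtss1, which shapes membrane and actin, had 6.05 in CIITAtgpIV-/- and 7.38 in B6 wild-type, 2.51-fold lower. Nup62, a nuclear pore protein, had 8.14 in CIITAtgpIV-/- and 9.32 in B6 wild-type, a difference of -1.18. Dtx1, the Notch pathway ubiquitin ligase Deltex1, had 7.36 in CIITAtgpIV-/- and 8.36 in B6 wild-type, and at -1.0002 it lay closest to the threshold. Adamts3, a procollagen peptidase, was below the floor, and its probe set covers 157 bases of a gene of 209828 bases in RefSeq. Stil, described above, completes the group.

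The limit of 2-fold decided the membership of several genes. On the lower side the 3 genes just inside were Dtx1, Adamts3 (-1.01) and Myo9a (-1.02), and the nearest probe set that was not listed differed by -0.9996. On the higher side they were Olfr1416 (1.03), Arhgap26 (1.09) and Errfi1 (1.10), and the nearest one outside differed by 0.997. In all, 17 of the 46 lay within 0.2 of the threshold. Centring each array on its median moved every difference by -0.093, which took Arhgap26 to 0.995 and Olfr1416 to 0.93. Those medians include the probe sets outside the listed identifier range. Centring the differences over the listed range alone left Arhgap26 at 1.06 and took Olfr1416 to 0.995. Quantile normalization took Dtx1 to -0.96.

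**Figure D3:**
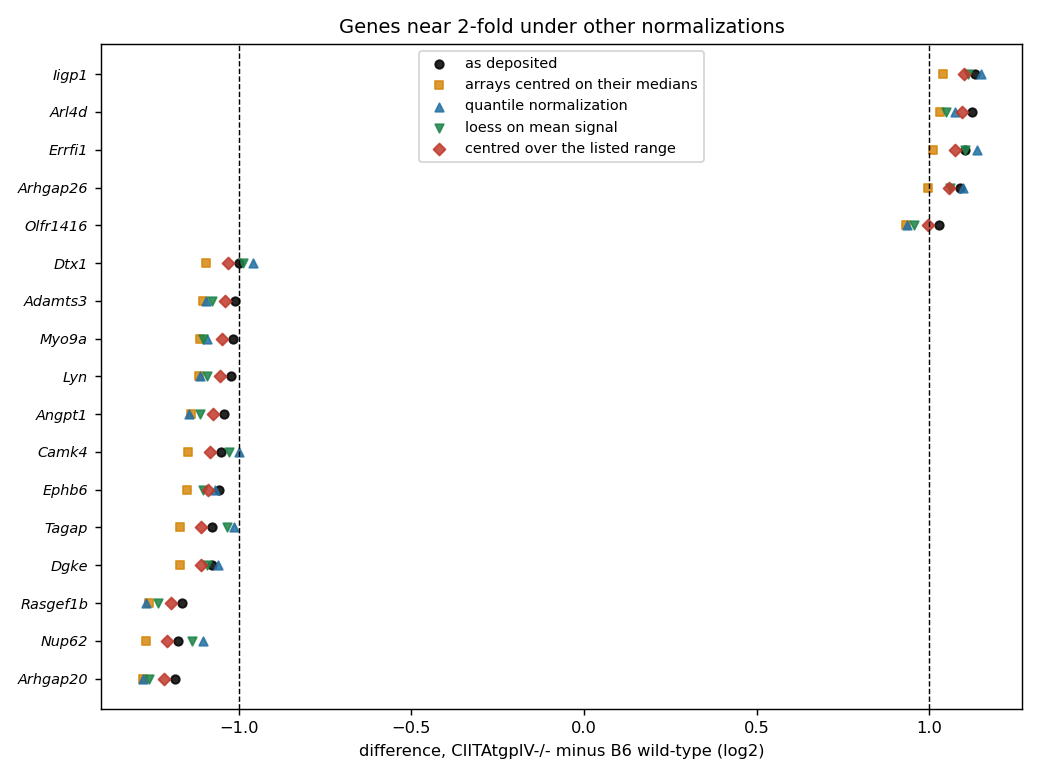
Difference (CIITAtgpIV-/- minus B6 wild-type, log2) of the 17 genes within 0.2 of the threshold, as deposited and under 4 other normalizations, with dashed lines at 2-fold. Olfr1416, Arhgap26 and Dtx1 cross a line under at least 1 normalization, and no gene changes sign.

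Other genes of the same pathways were read from 12 textbook lists of 448 entries, most of which are not named in the authors' table. Of these, 31 were listed, 14 as higher and 17 as lower, and 18 of the 31 are among the 46 genes. The other 13 divided into 10 higher and 3 lower, which 1 array a group gives no test of, while the lower share of the 46 genes was close to that of all listed genes. Among listed genes with a signalling term that are not members, the 20 genes left out by symbol comprised 11 higher and 9 lower with a median difference of 1.64, and the 16 with a term of transcription or division comprised 7 higher and 9 lower. The listed share was 6.92% of the list entries, and 26 of the 31 listed genes lay past the floor. Among all probe sets in the range, 0.977% were past 2-fold higher and 2.54% lower. Among those past the floor, the shares were 1.78% higher and 4.78% lower. List entries and probe sets are unlike units, and the lists were chosen with earlier results known, so nothing is read from these shares side by side. Unlisted genes have no name in the files used here. The unlisted probe sets in the identifier range all differed by under 2-fold, at most 0.997 upward and -0.9996 downward. Which of them measure the unlisted genes of the lists is unknown.

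Of 40 G protein-coupled receptors, 5 were higher and 2 lower, with the adenosine receptor gene Adora2a at 7.81 in CIITAtgpIV-/- and 6.59 in B6 wild-type. The 3 listed genes of a list of 29 G proteins and RGS regulators, which does not hold Rgs1, were lower. So were the 3 of 24 for cyclic nucleotides. As 72.5% of all listed genes were lower, nothing is read from these counts. The cyclic nucleotide genes were Prkar2b, Pde5a, which was below the floor, and Arpp21 (-3.40), which is also a marker of double-positive thymocytes here. Of 56 genes of T cell receptor proximal signalling, 3 (5.36%) were listed, Tec and Prkce higher by 1.03 and 1.20 and Lyn lower. Of 33 MAP kinase genes, Dusp10 and Map3k8 were listed, higher by 1.46 and 1.04. In calcium signalling, Ppp3cc, a catalytic subunit of calcineurin, had 11.03 in CIITAtgpIV-/- against 9.06 in B6 wild-type, while Camk4 was lower. In the Notch, Wnt and Hedgehog list, Nrarp, a feedback inhibitor of Notch, was higher by 1.26, while Dtx1 and the Hedgehog transducer Smo were lower, Smo by -1.84. None of the 21 Arf and Rab GTPases on the list was listed by the authors.

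**Figure D4:**
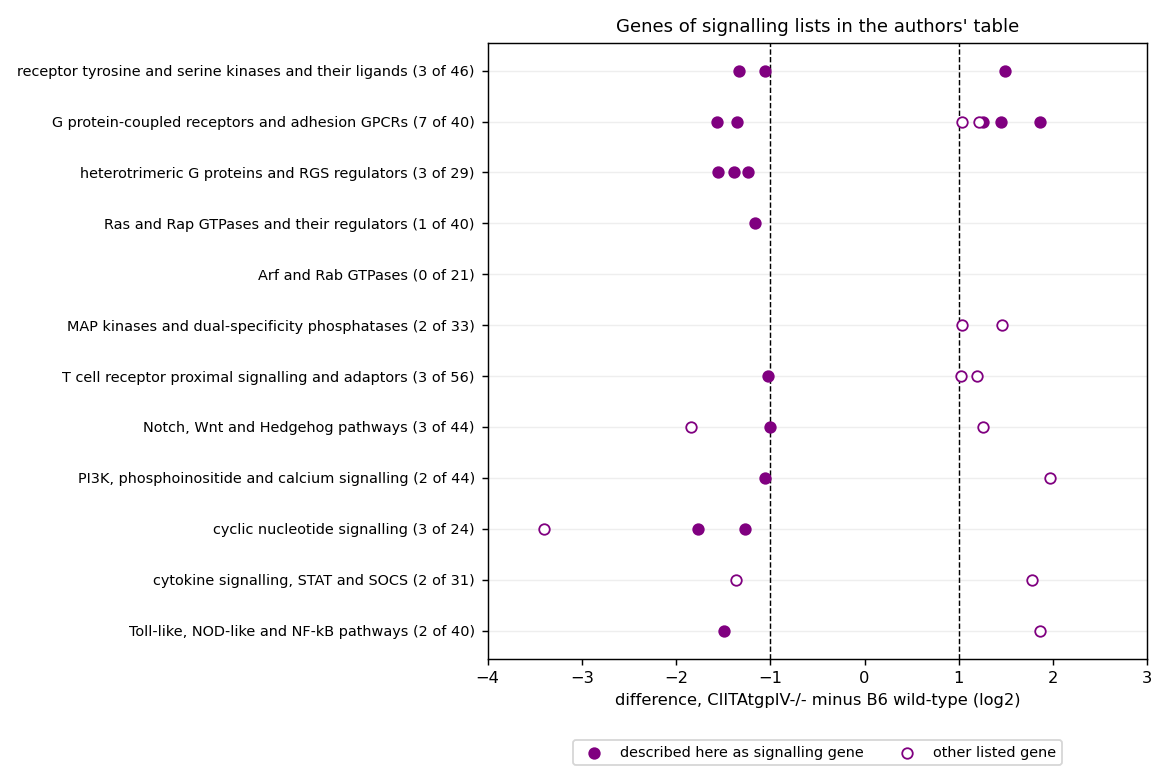
Difference (CIITAtgpIV-/- minus B6 wild-type, log2) of the listed genes of 12 signalling lists, filled where the gene is among the 46 and open where it is not, with dashed lines at 2-fold and the number listed of the number on the list beside each name. Filled points lie mostly on the left, and 10 of the 13 open points lie on the right.

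Function and compartment terms of the authors' annotation were not used in the selection. They placed 7 of them (15.2%) in the nucleus, against 36.7% of the 743 listed genes that are not members. They placed 13 (28.3%) at the plasma membrane, against 9.15% of the others. Of the 13 at the plasma membrane, 4 were higher and 9 lower, beside 34 higher and 34 lower among the others there. Receptor activity was annotated to 14 of the 46, of which 7 were higher and 7 lower, beside 26 higher and 30 lower among the other listed genes. A kinase activity term was held by 7, with 1 higher and 6 lower, beside 8 higher and 36 lower among the others. The lower shares of both terms were thus close to those outside the 46 genes. The annotation terms belong together with the term used for selection, so these shares are descriptions. By the 1 probe set used for each gene, the file and RefSeq gave the same chromosome for all 46 genes. The other Depdc1a probe set, placed on chromosome 7, is not in this count. The probe set interval was 85.3% to 124% of the RefSeq gene length for 40 of the 46 genes. Of the other 6, Plek had 216%, Arhgap26 49.5% and Gpr55 36.9%, beside the short intervals of Myo9a and Adamts3.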

How the data were processed

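Log2 signals of 35556 probe sets in 2 arrays were read from the authors' deposited value table. GCOS and RMA are named in the submitters' processing notes. Expression Console 1.1, affy 2.9.2 and a selection by fold (2) and false discovery rate (10%) are named in the series' design text. Every probe set in the identifier range that passed 2-fold was listed, so a false discovery rate left none of them out. With 1 array a group, the values used here give no such rate. No source used here states which array, annotation or genome build was used. RMA shrinks differences at low signal. The authors' deposited table supplied symbols, ontology terms and log2 ratios for 1003 probe sets, and these ratios equal the difference of the value table. Its 2 signal columns were not used.

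Where a gene had several listed probe sets, the brightest on average was used. With 1 array a group, differences and counts past 2-fold were computed and no test was run. The members and the lists were chosen with earlier results of these data known. The naming rule took the 15 largest increases and decreases past the floor, up to 4 genes a list, families with a shared symbol stem and 3 genes near 2-fold on each side. It named 35 members, and the other 11 are named in the account of their role. Of the members, 1 is included in the counts but is not otherwise reported here, and neither is 1 of the lists. Alternatives were the floor, a threshold of 3-fold, median centring, quantile normalization, loess (span 0.3), the mean over probe sets and a narrower term. Normalizations were run on simulated data with as many raised as lowered probe sets. In the real arrays, 279 probe sets in the range were at least 2-fold higher and 724 lower. The simulation does not cover that imbalance. Promoters came from RefSeq, GRCm38.p6. Python 3.11.15, pandas 2.3.3 and statsmodels 0.14.6 were used.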

Additional observations from a re-analysis of the deposited data

Results flagged for a closer look

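Outside the identifier range of the authors' deposited table, among 6996 probe sets that no count above includes, 609 were at least 2-fold higher and 74 at least 2-fold lower in CIITAtgpIV-/- than in B6 wild-type. These probe sets have no annotation in the files used here, and the cause was not tested.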

How the results depend on the processing

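All 46 differences kept their direction and shifted by under 0.25, the robust SD, under median centring, quantile normalization, loess, centring over the listed range (chosen after seeing the data) and the mean over probe sets. The direction is a weak check, since the 2-fold selection keeps every gene far from 0. Under 2-fold came 2 genes with median centring (Arhgap26 and Olfr1416), 2 with quantile normalization and 2 with loess (Olfr1416 and Dtx1 in both), and 1 with centring over the range (Olfr1416). The counts past the floor, 10 higher and 26 lower, depended on the thresholds. With the floor at the 75th percentile, 7.50, 7 were higher and 12 lower. At 3-fold, 4 were higher and 11 lower. With the term signal transduction alone, 5 were higher and 19 lower. Fewer genes pass each of these by construction. The median difference past the floor stayed between -1.34 and -1.08 in the alternatives other than 3-fold, where it was not computed. No paired analysis was possible because there is only 1 array per genotype, which also leaves no replicate to drop. For genes near the floor, background limits how large a difference can be measured.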
